A study of Mus musculus with 12 samples.

Results

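The mitochondrial respiratory chain genes described here are 76 nuclear genes, 1 probe set each, among 23185 probe sets that were paired with exactly 1 gene. They were chosen by symbol: names beginning with Ndufa, Ndufb, Ndufc, Ndufs, Ndufv, Uqcr, Cox4i, Cox5, Cox6, Cox7, Cox8 or Atp5, together with Sdha, Sdhb, Sdhc, Sdhd and Cyc1. The names matched 87 rows, and 3 pseudogenes and 8 Ndufaf assembly factors were dropped. By complex, 33 genes belonged to complex I, 4 to complex II, 8 to complex III, 19 to complex IV and 12 to complex V. Ndufa4 and its paralogue Ndufa4l2 were counted with complex IV, where the Ndufa4 protein is found.

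The arrays measured RNA of CD4+ T cells from mouse spleen, 3 arrays in each of 4 groups. Cre- cells had the genotype Lck-Cre-;Ikzf+/+ and Cre+ cells the genotype Lck-Cre+;Ikzf-/-, in which Cre under the control of Lck, a gene of the T lineage, removes Ikaros, a zinc finger transcription factor of lymphocytes. Cells of each genotype were either at baseline, labelled 0 h, or activated for 24 h by antibody to CD3 bound to the plate with soluble antibody to CD28, the receptor complex and the main costimulatory receptor of T cells. No group carried Cre with intact Ikaros, and no group was cultured for 24 h without the antibodies, so Cre and loss of Ikaros, and culture and activation, cannot be told apart. Neither the ages of the mice nor the number of animals behind an array could be taken from the labels. A p-value therefore measures the spread between samples, which may be technical.

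The respiratory chain lies in the inner mitochondrial membrane. Complex I takes electrons from NADH and complex II takes them from succinate. Both pass them through coenzyme Q to complex III, which hands them to cytochrome c, and complex IV passes them to oxygen. Complexes I, III and IV pump protons, and complex V, the ATP synthase, uses the proton gradient to make ATP. Activated T cells are known to raise both glycolysis and mitochondrial mass before they divide. A few subunits are encoded in mitochondrial DNA; these were not analysed here.

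All values are log2 expression, and the 3 values of a group are given in the order of the labels' replicate numbers 1, 2 and 3. The median of all probe sets was 4.04 to 4.17 on the 12 arrays, and no array repeated another. The mean of 8 CD4 T cell markers was 9.76 to 10.43 on every array. The targeted gene Ikzf1, which encodes Ikaros, read 10.54, 10.52 and 10.54 at Cre- baseline, 10.03, 10.22 and 10.08 in activated Cre- cells, 10.66, 10.29 and 10.13 at Cre+ baseline and 10.14, 9.93 and 9.89 in activated Cre+ cells. These ranges overlap between the genotypes in the activated cells and at baseline, and the labels name neither the deleted nor the probed exons, so this probe set does not check the genotype labels.

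Promoters of Sdhb, Sdha, Ndufb6, Ndufa12 and Ndufa11 are shown because Sdhb, Ndufb6 and Ndufa12 passed on activation in Cre- cells while Sdha and Ndufa11, of the same complexes, did not, and because they differ in motifs of factors known to act on respiratory genes. They were picked after the values were seen, and each sequence holds the 250 bases before the RefSeq start of the gene, 5′ to 3′ on the gene's strand in build GRCm38.p6. Capitals mark a match to GCATGCGC, bound by NRF1, or to ACCGGAAG, bound by ETS factors such as GABP, on either strand. Sdhb lies at chr4:140961021-140961270 (plus strand), Sdha at chr13:74350241-74350490 (minus strand) and Ndufb6 at chr4:40279422-40279671 (minus strand). Ndufa12 lies at chr10:94198785-94199034 and Ndufa11 at chr17:56717512-56717761, both on the plus strand.
Sdhb: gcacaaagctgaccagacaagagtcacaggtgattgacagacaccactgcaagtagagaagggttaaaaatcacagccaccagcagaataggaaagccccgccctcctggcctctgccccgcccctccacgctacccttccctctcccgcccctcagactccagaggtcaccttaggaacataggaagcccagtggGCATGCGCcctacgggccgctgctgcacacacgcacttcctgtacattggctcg
Sdha: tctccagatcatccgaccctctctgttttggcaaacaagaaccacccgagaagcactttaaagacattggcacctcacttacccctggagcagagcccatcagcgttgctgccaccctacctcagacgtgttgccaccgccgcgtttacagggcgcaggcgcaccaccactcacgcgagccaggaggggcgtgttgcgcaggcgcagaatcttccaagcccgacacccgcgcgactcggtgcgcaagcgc
Ndufb6: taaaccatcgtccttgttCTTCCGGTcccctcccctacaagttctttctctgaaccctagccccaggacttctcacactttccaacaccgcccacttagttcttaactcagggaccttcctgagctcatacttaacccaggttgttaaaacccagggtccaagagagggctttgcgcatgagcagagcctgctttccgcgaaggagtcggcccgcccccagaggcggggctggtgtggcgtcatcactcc
Ndufa12: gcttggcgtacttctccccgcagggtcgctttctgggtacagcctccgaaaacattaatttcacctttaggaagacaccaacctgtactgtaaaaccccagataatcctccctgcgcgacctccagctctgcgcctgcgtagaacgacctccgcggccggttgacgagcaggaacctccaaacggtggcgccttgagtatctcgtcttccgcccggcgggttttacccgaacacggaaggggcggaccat
Ndufa11: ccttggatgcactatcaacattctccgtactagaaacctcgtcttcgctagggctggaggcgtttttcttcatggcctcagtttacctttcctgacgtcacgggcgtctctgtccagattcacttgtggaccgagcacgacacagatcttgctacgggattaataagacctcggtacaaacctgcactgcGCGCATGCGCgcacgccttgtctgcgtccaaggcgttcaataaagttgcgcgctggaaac
The Sdhb match begins at base -54, counted from the start with the base before it as -1. Sdhb also holds ACCGGAAG from base 6 after the start, outside the stretch shown. The Ndufb6 match begins at -232 on the opposite strand. In Ndufa11, matches on both strands overlap, from -60 and from -58. The Sdha and Ndufa12 stretches hold neither string.

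RefSeq windows of 250 bases before to 50 after the start were at hand for 61 of the 76 genes, 66 windows in all. On both strands, GCATGCGC was in 8 of the 66 windows (12.1%) against 3.51% of all 21262 windows of protein-coding genes. ACCGGAAG was in 7 (10.6%) against 3.01%, and AAGATGGC, bound by YY1, in 9 (13.6%) against 3.05%. The palindrome within GCATGCGC lets it match both strands in overlapping places, counted once for a window. At least 1 of the strings was found for 23 of the 61 genes. Counted by window, 9.12% of all 21262 windows held at least 1. Of the 23 genes with a window that rose on activation in Cre- cells, as given below, 7 held a string. Of the 38 that did not pass, 16 did. By string, GCATGCGC was found for 1 gene that rose, Sdhb, and for 7 that did not pass. ACCGGAAG was found for 4 and 3, and AAGATGGC for 3 and 6. A match is a description of letters and was not tied to a bound factor or to a rise here.

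Activation was accompanied by higher RNA of respiratory chain genes in both genotypes. In Cre- cells 31 of the 76 genes rose and 0 fell at a Benjamini-Hochberg adjusted p under 0.05 in a limma model of all 12 arrays. Over all genes tested, 9.39% rose and 9.1% fell. The median difference of the 76 genes, activated minus baseline, was 0.47 on the log2 scale (1.38-fold), against -0.0047 over all genes, and 67 of the 76 differences were above 0. In Cre+ cells 30 of 76 rose and 0 fell (10.1% and 10.6% of all genes), with a median of 0.43 (1.35-fold) against -0.020 over all genes, and 65 differences were above 0. At an unadjusted p under 0.05, 51 genes in Cre- and 48 in Cre+ cells passed in either direction, against 29.7% and 31.2% of all genes. Probe sets of low signal seldom passed: among genes with a mean of at least 5 over the arrays, 29 of 64 members rose in each genotype (45.3%), against 20.2% in Cre- and 21.0% in Cre+ cells for all genes of that mean.

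Across the arrays themselves, all 3 activated values lay above all 3 baseline values for 50 of the 76 genes in Cre- cells and for 43 in Cre+ cells, where 17.7% and 17.3% of all genes did so. They lay below for 1 gene, Cox7a2l, in each genotype, against 17.4% and 19.3% of all genes; in either direction 35.1% and 36.7% of all genes had arrays that did not overlap. Leaving out 1 array moved the counts: 16 genes passed in Cre- cells without baseline array 3, 20 without baseline array 1 and 18 without activated array 3. In Cre+ cells 9 passed without activated array 1, 9 without activated array 3, 13 without baseline array 2 and 15 without baseline array 1 or 3. With arrays weighted by their quality 58 passed in Cre+ cells, 57 higher and Cox7a2l lower. No activation difference of the 76 genes that passed changed sign under the alternatives run for it. These were 21, or 20 for Cox6c, Ndufb3 and Cox5b, whose mean was under 5 and which had no value among genes with a mean of at least 5.

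**Figure D1:**
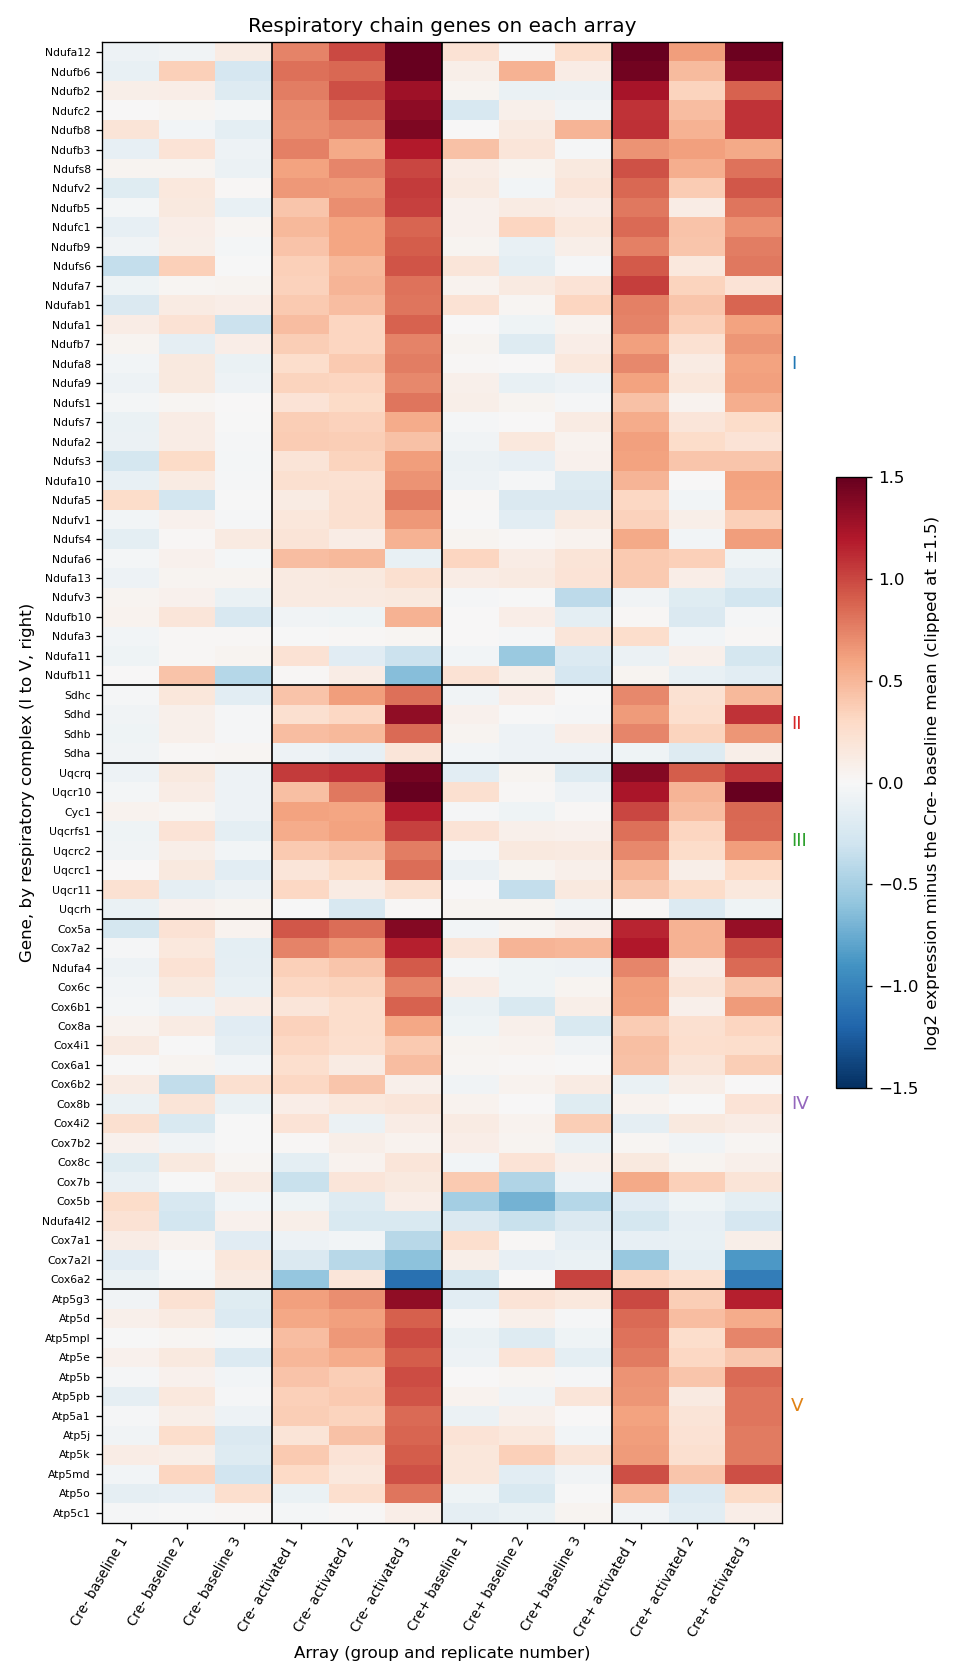
Log2 expression of each of the 76 genes on each of the 12 arrays, shown as colour, minus the gene's mean over the 3 Cre- baseline arrays and clipped at 1.5 either way; rows are grouped by complex I to V and ordered by the Cre- difference, columns by group and replicate number. Red fills the activated columns of both genotypes for most rows, deepest on Cre- activated array 3, which was the highest of its group for 64 genes, and palest on Cre+ activated array 2, the lowest of its group for 58.

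In complex I, 16 of 33 subunits rose in Cre- cells and 13 in Cre+ cells, with medians of 0.48 and 0.47. Of all genes tested, 9.39% rose in Cre- and 10.1% in Cre+ cells. Ndufa12, an accessory subunit, read 7.97, 7.99 and 8.17 at Cre- baseline, 8.79, 9.04 and 9.80 in activated Cre- cells, 8.26, 8.04 and 8.31 at Cre+ baseline and 9.54, 8.67 and 9.52 in activated Cre+ cells. Every activated value stood above every baseline value of either genotype. The difference was 1.17 ± 0.26 (SE, n = 3 arrays a group; 2.24-fold, adjusted p = 0.00981) in Cre- and 1.04 ± 0.26 (adjusted p = 0.0162) in Cre+ cells. The Cre+ call was lost without Cre+ baseline array 2 or activated array 1 or 3, at adjusted p up to 0.0730. Ndufb6, another accessory subunit, read 6.89, 7.35 and 6.74 at Cre- baseline, 7.82, 7.86 and 8.58 in activated Cre- cells, 7.09, 7.52 and 7.11 at Cre+ baseline and 8.44, 7.46 and 8.36 in activated Cre+ cells. Its groups did not overlap in Cre- cells, while in Cre+ cells activated array 2, at 7.46, lay below baseline array 2, at 7.52. Its difference was 1.09 ± 0.28 in Cre- cells (adjusted p = 0.0192) and 0.85 ± 0.28 in Cre+ cells, which did not pass (adjusted p = 0.0534). The Cre- call did not hold without Cre- baseline array 1 or 3 or activated array 3, where the adjusted p reached 0.0792.

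Of the 6 core subunits of complex I that were measured, 3 rose in each genotype, against 9.39% and 10.1% of all genes. Ndufs8, which holds iron-sulfur clusters near the quinone site, read 7.40, 7.40 and 7.27 at Cre- baseline, 7.96, 8.09 and 8.36 in activated Cre- cells, 7.47, 7.40 and 7.50 at Cre+ baseline and 8.32, 7.90 and 8.17 in activated Cre+ cells. The activated and baseline arrays were fully apart, by 0.78 ± 0.13 in Cre- (adjusted p = 0.00171) and 0.67 ± 0.13 in Cre+ cells (adjusted p = 0.00376), and both calls held under all 21 alternatives. Ndufv2, an iron-sulfur subunit of the NADH arm, differed by 0.78 ± 0.17 in Cre- and 0.64 ± 0.17 in Cre+ cells and passed in both. Ndufs7 passed in Cre- cells at 0.42 ± 0.12 and Ndufs3 in Cre+ cells at 0.53 ± 0.15. Ndufv1, which binds FMN and takes the electrons from NADH, was 0.35 ± 0.14 and 0.28 ± 0.14 higher and did not pass in either genotype.

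Among the 27 accessory subunits, 13 rose in Cre- and 10 in Cre+ cells, against 9.39% and 10.1% of all genes. Ndufc2 differed by 0.97 ± 0.19 in Cre- and 0.95 ± 0.19 in Cre+ cells, and Ndufb2 by 1.00 ± 0.20 and 0.87 ± 0.20; all 4 calls held under every alternative. Ndufab1, the mitochondrial acyl carrier protein, which also serves fatty acid synthesis, passed in both at 0.55 ± 0.16 and 0.50 ± 0.16. Ndufa3 lay nearest 0 in the complex in Cre- cells. It read 9.41, 9.47 and 9.48 at Cre- baseline, 9.45, 9.47 and 9.49 in activated Cre- cells, 9.46, 9.43 and 9.64 at Cre+ baseline and 9.72, 9.42 and 9.47 in activated Cre+ cells, a difference of 0.017 ± 0.10 in Cre- cells. The activated and baseline arrays of Ndufa3 overlapped in both genotypes. Ndufb11 and Ndufa11 had differences below 0 in Cre- cells, -0.16 and -0.09, and neither passed.

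Complex II, succinate dehydrogenase, also works in the tricarboxylic acid cycle. Sdhb and Sdhc rose in both genotypes, against 9.39% and 10.1% of all genes, while Sdha and Sdhd did not pass. Sdhb, the iron-sulfur subunit, read 7.42, 7.57 and 7.47 at Cre- baseline, 7.96, 7.98 and 8.34 in activated Cre- cells, 7.53, 7.41 and 7.59 at Cre+ baseline and 8.22, 7.83 and 8.15 in activated Cre+ cells. The membrane anchor Sdhc read 7.10, 7.29 and 6.96 at Cre- baseline, 7.54, 7.75 and 7.94 in activated Cre- cells, 7.06, 7.22 and 7.11 at Cre+ baseline and 7.83, 7.35 and 7.60 in activated Cre+ cells. For both genes the activated arrays lay above the baseline arrays in each genotype. Sdhb differed by 0.60 ± 0.13 (1.52-fold, adjusted p = 0.00921) in Cre- and 0.55 ± 0.13 (adjusted p = 0.0132) in Cre+ cells. Sdhc differed by 0.63 ± 0.15 (adjusted p = 0.0116) and 0.46 ± 0.15 (adjusted p = 0.0438). The Cre+ call of Sdhb was lost without Cre+ baseline array 2 or activated array 1 or 3, and that of Sdhc under 10 of the 21 alternatives, among them leaving out any 1 of the Cre+ arrays but activated array 2. In Cre- cells Sdhc missed the threshold without baseline array 3, at adjusted p = 0.0524, while the Sdhb call held throughout.

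Sdha, the catalytic subunit that binds FAD, read 9.79, 9.85 and 9.87 at Cre- baseline, 9.76, 9.72 and 10.03 in activated Cre- cells, 9.80, 9.76 and 9.76 at Cre+ baseline and 9.78, 9.65 and 9.92 in activated Cre+ cells. Its activated and baseline arrays overlapped in both genotypes, with differences of -0.0038 ± 0.11 and 0.0089 ± 0.11. The other membrane anchor, Sdhd, read 7.07, 7.20 and 7.11 at Cre- baseline, 7.37, 7.43 and 8.45 in activated Cre- cells, 7.19, 7.12 and 7.11 at Cre+ baseline and 7.77, 7.38 and 8.21 in activated Cre+ cells. All activated arrays were above all baseline arrays, with the arrays numbered 3 far above the rest, and the differences of 0.63 ± 0.26 and 0.65 ± 0.26 did not pass (adjusted p = 0.132 and 0.110).

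In complex III, 4 of 8 subunits rose in each genotype, the same 4: Uqcrq, Cyc1, Uqcrfs1 and Uqcrc2. The shares of all genes were 9.39% in Cre- and 10.1% in Cre+ cells. Uqcrq, a small subunit in contact with cytochrome b, read 6.17, 6.39 and 6.17 at Cre- baseline, 7.30, 7.33 and 7.68 in activated Cre- cells, 6.09, 6.29 and 6.06 at Cre+ baseline and 7.63, 7.15 and 7.30 in activated Cre+ cells. No activated value came near the baseline range. Its difference was 1.19 ± 0.15 in Cre- (2.28-fold, adjusted p = 0.000238) and 1.21 ± 0.15 in Cre+ cells (2.32-fold, adjusted p = 0.000184), the smallest adjusted p of the 76 genes in each comparison. Cyc1, the cytochrome c1 that passes electrons on to cytochrome c, read 6.75, 6.74 and 6.62 at Cre- baseline, 7.31, 7.30 and 7.88 in activated Cre- cells, 6.69, 6.64 and 6.72 at Cre+ baseline and 7.70, 7.16 and 7.57 in activated Cre+ cells. The groups did not overlap, and the differences of 0.79 ± 0.17 (adjusted p = 0.00739) and 0.80 ± 0.17 (adjusted p = 0.00640) held under all alternatives, as did those of Uqcrq.

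Uqcrfs1, the Rieske iron-sulfur protein, passed at 0.73 ± 0.17 in Cre- and 0.55 ± 0.17 in Cre+ cells, and the core protein Uqcrc2 at 0.53 ± 0.14 and 0.45 ± 0.14. Those 4 calls were each lost without at least 1 array. Without Cre- baseline array 3 neither gene passed in Cre- cells, and Uqcrc2 was also lost without Cre- baseline array 1 or activated array 3. In Cre+ cells both were lost without any 1 of 5 of the 6 Cre+ arrays, activated array 2 being the exception. Uqcr10, a small subunit, read 6.08, 6.22 and 6.04 at Cre- baseline, 6.56, 6.90 and 8.18 in activated Cre- cells, 6.35, 6.13 and 6.04 at Cre+ baseline and 7.34, 6.62 and 7.65 in activated Cre+ cells. All its activated arrays were higher, but unevenly, from 6.56 to 8.18 in Cre- cells, and differences of 1.10 ± 0.36 and 1.03 ± 0.36 did not pass (adjusted p = 0.0510 and 0.0620). Uqcrh, the hinge protein, lay nearest 0. It read 8.98, 9.14 and 9.11 at Cre- baseline, 9.07, 8.84 and 9.10 in activated Cre- cells, 9.12, 9.12 and 9.03 at Cre+ baseline and 9.10, 8.88 and 9.02 in activated Cre+ cells, with overlapping arrays and differences of -0.08 ± 0.11 and -0.09 ± 0.11.

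**Figure D2:**
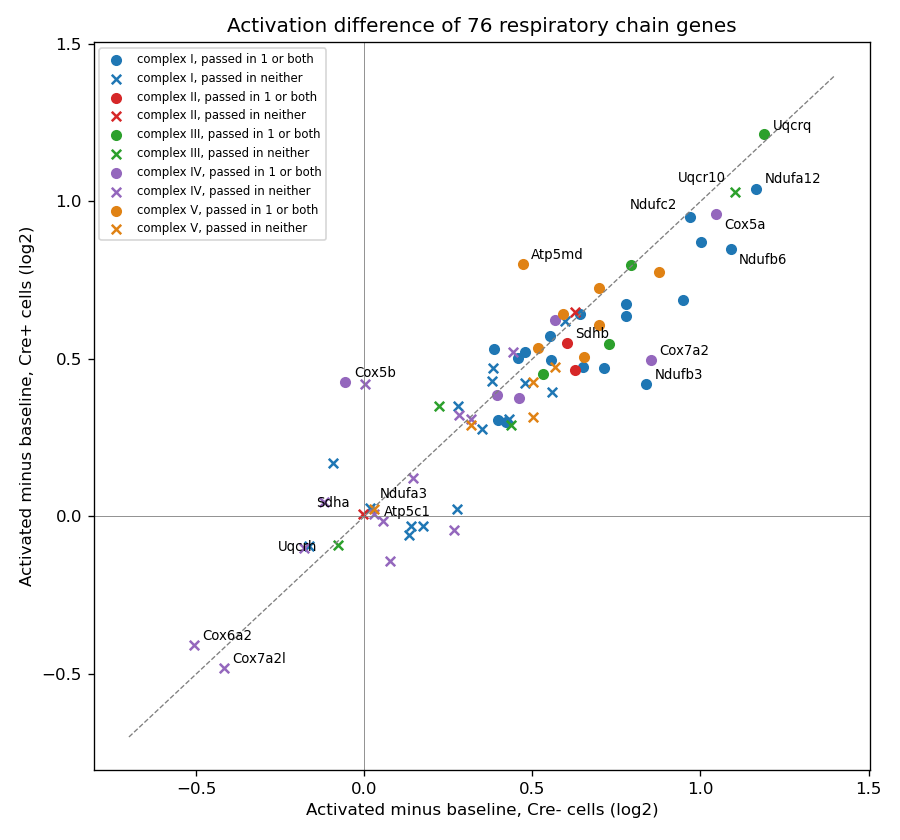
Log2 difference between activated and baseline cells for each of the 76 genes, Cre- cells on the horizontal and Cre+ cells on the vertical axis, coloured by complex; filled points passed in 1 or both genotypes, crosses in neither, and the dashed line marks equal differences. Most points lie up and right of 0 along the line, from Uqcrq at 1.19 and 1.21 down to Cox7a2l at -0.42 and -0.48 and Cox6a2 at -0.51 and -0.41.

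Complex IV, cytochrome c oxidase, has subunits with broad and with tissue forms. Of 10 broad subunits 4 rose in each genotype, where 9.39% of all genes rose in Cre- and 10.1% in Cre+ cells. Of 8 tissue forms 0 passed in either genotype, where 18.5% and 20.7% of all genes passed in either direction. Most tissue forms read near or below the median of all probe sets, and probe sets of low signal seldom passed. The lack of calls is therefore not read as a difference between the forms. No tissue form had an unadjusted p under 0.05 in either activation comparison, against 29.7% and 31.2% of all genes. Cox5a, a broad subunit that faces the mitochondrial matrix, read 7.002, 7.48 and 7.33 at Cre- baseline, 8.20, 8.11 and 8.65 in activated Cre- cells, 7.24, 7.31 and 7.37 at Cre+ baseline and 8.41, 7.80 and 8.58 in activated Cre+ cells. Activated and baseline arrays were apart in both genotypes, by 1.05 ± 0.21 (2.07-fold, adjusted p = 0.00459) and 0.96 ± 0.21 (adjusted p = 0.00672), and both calls held throughout. Cox7a2 read 5.72, 5.89 and 5.58 at Cre- baseline, 6.47, 6.37 and 6.90 in activated Cre- cells, 5.91, 6.24 and 6.22 at Cre+ baseline and 6.93, 6.25 and 6.68 in activated Cre+ cells. The Cre- difference of 0.85 ± 0.19 passed (adjusted p = 0.00843) and held throughout. In Cre+ cells the difference was 0.50 ± 0.19 (adjusted p = 0.0877), with activated array 2, at 6.25, only just above the highest baseline array, at 6.24.

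Cox8a passed in both genotypes, Cox6c in Cre- and Ndufa4 and Cox5b in Cre+ cells. All of these calls were close to the threshold and were lost under 10 or more of the alternatives. Cox8a read 8.55, 8.62 and 8.33 at Cre- baseline, 8.84, 8.76 and 9.08 in activated Cre- cells, 8.44, 8.58 and 8.27 at Cre+ baseline and 8.88, 8.74 and 8.83 in activated Cre+ cells. Its activated arrays were all above the baseline arrays, by 0.39 ± 0.12 and 0.38 ± 0.12. The tissue forms of this subunit stayed within overlapping ranges: Cox8b, of heart and muscle, read 3.02, 3.31 and 3.02 at Cre- baseline, 3.22, 3.27 and 3.29 in activated Cre- cells, 3.17, 3.12 and 2.93 at Cre+ baseline and 3.17, 3.11 and 3.32 in activated Cre+ cells, and Cox8c, of testis, 1.95, 2.27 and 2.16 at Cre- baseline, 1.98, 2.18 and 2.31 in activated Cre- cells, 2.09, 2.34 and 2.20 at Cre+ baseline and 2.28, 2.17 and 2.20 in activated Cre+ cells.

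Ndufa4 read 8.37, 8.67 and 8.31 at Cre- baseline, 8.81, 8.87 and 9.38 in activated Cre- cells, 8.42, 8.38 and 8.38 at Cre+ baseline and 9.19, 8.57 and 9.30 in activated Cre+ cells, with no overlap between activated and baseline arrays, and differed by 0.57 ± 0.20 in Cre- (adjusted p = 0.0710) and 0.63 ± 0.20 in Cre+ cells (adjusted p = 0.0450). Its paralogue Ndufa4l2 read 3.02, 2.53 and 2.88 at Cre- baseline, 2.90, 2.59 and 2.58 in activated Cre- cells, 2.59, 2.47 and 2.59 at Cre+ baseline and 2.55, 2.68 and 2.56 in activated Cre+ cells, and its arrays overlapped. Cox4i1, which regulates the enzyme's response to ATP, read 8.07, 7.93 and 7.81 at Cre- baseline, 8.25, 8.19 and 8.33 in activated Cre- cells, 7.99, 7.99 and 7.89 at Cre+ baseline and 8.39, 8.20 and 8.20 in activated Cre+ cells. The activated arrays were all higher, and 0.32 ± 0.10 and 0.31 ± 0.10 fell just short of passing (adjusted p = 0.0527 and 0.0539). The lung form Cox4i2 read 4.54, 4.07 and 4.29 at Cre- baseline, 4.51, 4.21 and 4.41 in activated Cre- cells, 4.43, 4.35 and 4.66 at Cre+ baseline and 4.16, 4.45 and 4.41 in activated Cre+ cells, again with overlap.

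Cox6a1 read 10.60, 10.65 and 10.57 at Cre- baseline, 10.86, 10.73 and 11.07 in activated Cre- cells, 10.63, 10.62 and 10.60 at Cre+ baseline and 11.05, 10.79 and 10.98 in activated Cre+ cells. The activated arrays stood above the baseline arrays in both genotypes, and the differences of 0.28 ± 0.11 and 0.32 ± 0.11 did not pass. Cox6a2, of heart and muscle, read 5.21, 5.27 and 5.44 at Cre- baseline, 4.72, 5.49 and 4.19 in activated Cre- cells, 5.04, 5.31 and 6.32 at Cre+ baseline and 5.63, 5.56 and 4.26 in activated Cre+ cells, a wide scatter in all groups but Cre- baseline, and its differences of -0.51 ± 0.42 and -0.41 ± 0.42 did not pass. Cox6b1 read 6.93, 6.88 and 7.07 at Cre- baseline, 7.14, 7.22 and 7.84 in activated Cre- cells, 6.86, 6.73 and 7.04 at Cre+ baseline and 7.57, 7.03 and 7.60 in activated Cre+ cells, and its differences of 0.44 ± 0.20 and 0.52 ± 0.20 did not pass. The testis form Cox6b2 read 3.73, 3.25 and 3.86 at Cre- baseline, 3.92, 4.03 and 3.69 in activated Cre- cells, 3.56, 3.67 and 3.73 at Cre+ baseline and 3.52, 3.70 and 3.61 in activated Cre+ cells, overlapping in both genotypes. Cox7b, which lay nearest 0 in Cre- cells within the complex, is given with the genotype comparisons.

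Cox7a2l, a paralogue of Cox7a2 that joins complexes III and IV into supercomplexes, ran the other way. It read 5.70, 5.86 and 6.04 at Cre- baseline, 5.65, 5.45 and 5.25 in activated Cre- cells, 5.95, 5.74 and 5.77 at Cre+ baseline and 5.30, 5.72 and 5.002 in activated Cre+ cells. The activated arrays were all below the baseline arrays in each genotype, by -0.42 ± 0.17 (adjusted p = 0.131) and -0.48 ± 0.17 (adjusted p = 0.0767), and neither passed. The Cre+ difference passed under 3 of the 21 alternatives: with array weights (adjusted p = 0.00454), among genes with a mean of at least 5 (adjusted p = 0.0463) and without Cre+ activated array 2 (adjusted p = 0.00990). Cox7a1, of heart and muscle, read 4.15, 4.10 and 3.88 at Cre- baseline, 3.97, 4.00 and 3.63 in activated Cre- cells, 4.30, 4.06 and 3.92 at Cre+ baseline and 3.91, 3.93 and 4.13 in activated Cre+ cells, with overlapping arrays.

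In complex V, 5 of 12 subunits rose in Cre- and 7 in Cre+ cells, against 9.39% and 10.1% of all genes. All 12 had differences above 0 in both. Atp5g3, which encodes the c subunit of the rotating ring, read 7.68, 7.96 and 7.55 at Cre- baseline, 8.35, 8.42 and 9.06 in activated Cre- cells, 7.58, 7.94 and 7.89 at Cre+ baseline and 8.73, 8.11 and 8.90 in activated Cre+ cells. Its activated arrays lay above its baseline arrays by 0.88 ± 0.23 (1.84-fold, adjusted p = 0.0207) and 0.77 ± 0.23 (adjusted p = 0.0340). The Cre- call was lost without Cre- baseline array 1 or 3 or activated array 3, and the Cre+ call without any Cre+ array but activated array 2. Atp5d, the delta subunit of the F1 stalk, read 9.32, 9.37 and 9.03 at Cre- baseline, 9.83, 9.85 and 10.14 in activated Cre- cells, 9.23, 9.32 and 9.23 at Cre+ baseline and 10.09, 9.71 and 9.80 in activated Cre+ cells. Here too the arrays were apart, by 0.70 ± 0.14 (adjusted p = 0.00414) and 0.61 ± 0.14 (adjusted p = 0.00793), and both calls held under all alternatives.

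Atp5b, the catalytic beta subunit of F1, passed in both genotypes at 0.59 ± 0.16 and 0.64 ± 0.16. It was lost in Cre- cells without baseline array 1 or 3 or activated array 3, and in Cre+ cells without activated array 1 or 3. Its partner Atp5a1, the alpha subunit, differed by 0.52 ± 0.17 in Cre- (adjusted p = 0.0539) and 0.53 ± 0.17 in Cre+ cells (adjusted p = 0.0440). The gamma subunit Atp5c1, the shaft of the motor, lay nearest 0 and read 6.44, 6.45 and 6.48 at Cre- baseline, 6.43, 6.47 and 6.56 in activated Cre- cells, 6.32, 6.37 and 6.50 at Cre+ baseline and 6.40, 6.30 and 6.55 in activated Cre+ cells. Its arrays overlapped, with differences of 0.028 ± 0.098 and 0.023 ± 0.098, and the probe set of its pseudogene Atp5c1-ps did not pass either. Probe sets of Uqcrh-ps1 and Ndufs5-ps did not pass in any comparison; whether probes are shared between a gene and its pseudogenes was not tested.

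The 24 genes that rose in both genotypes were joined by 7 that passed in Cre- cells alone (Ndufb6, Ndufb3, Ndufb5, Ndufs7, Ndufa2, Cox7a2 and Cox6c) and 6 that passed in Cre+ cells alone (Ndufa9, Ndufs3, Ndufa4, Cox5b, Atp5a1 and Atp5md). For these 13 the difference between the genotypes' responses was tested too, and 0 passed. The 2 activation comparisons share no array, though they share 1 estimate of the spread. Across the 76 genes their differences had a Pearson r of 0.91, and across all 23185 genes tested r was 0.89; genes are not independent replicates, and the 4 groups share their platform and normalization.

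The level on activation differed more between arrays than at baseline. The mean of the 76 genes was 6.65 ± 0.07 (SD, n = 3) at Cre- baseline, 7.09 ± 0.19 in activated Cre- cells, 6.67 ± 0.02 at Cre+ baseline and 7.07 ± 0.19 in activated Cre+ cells. The median SD of a member was 0.13 and 0.11 in the baseline groups and 0.25 and 0.24 in the activated groups, against 0.13, 0.13, 0.18 and 0.17 for all genes in the same order. Cre- activated array 3 stood highest at 7.31, with arrays 1 and 2 at 6.96 and 7.003. Of the activated Cre+ arrays, 1 and 3 stood at 7.22 and 7.14 and array 2 at 6.86. Without Cre- activated array 3 the median difference in Cre- cells was 0.33, and without Cre+ activated array 2 that in Cre+ cells was 0.59. Without the activated arrays numbered 3 of both genotypes, 21 genes passed in Cre- and 23 in Cre+ cells; 20 of the 31 and 20 of the 30 were kept.

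Marker genes of other cell types moved with activation as well. Of all genes, 9.1% fell in Cre- and 10.6% in Cre+ cells, where 10.1% rose. The mean of 9 B cell markers was 7.88 to 8.17 on the Cre- baseline arrays and 4.74 to 6.20 on the activated ones, and 7.76 to 7.78 and 5.33 to 6.99 in Cre+ cells; 8 of the 9 fell in Cre- and 5 in Cre+ cells. Of 9 myeloid markers, with a mean of 4.90 to 5.56 at baseline and 3.55 to 3.91 after activation, 8 and 7 fell. The NK cell markers Ncr1 and Klrb1c fell in both genotypes, and Eomes, which activated T cells can also express, rose in Cre+ cells. The mean of these 3 NK cell markers ranged from 5.10 to 5.44 at baseline and from 4.49 to 5.60 after activation. Among CD4 T cell markers, Cd3g and Lat fell in both genotypes and Cd4, Cd3e and Cd3d in Cre+ cells, out of 8. None of the 2 CD8 T cell, 2 erythroid or 5 platelet markers passed in either genotype. In either direction 18.5% and 20.7% of all genes passed. No marker was listed at 0, and the part of these cells in the respiratory chain results was not tested; in bulk RNA, fewer cells of a type and less RNA per cell cannot be told apart.

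The mean of 17 cell cycle genes was 6.78 to 6.98 on the baseline arrays. On the activated arrays it was 7.14, 7.16 and 9.49 in Cre- and 7.77, 7.04 and 9.10 in Cre+ cells, so the arrays numbered 3 stood far above the others. The respiratory genes were highest on the same array in Cre- cells, while in Cre+ cells array 1 was above array 3. The part of cell division in the respiratory chain results was not tested.

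**Figure D3:**
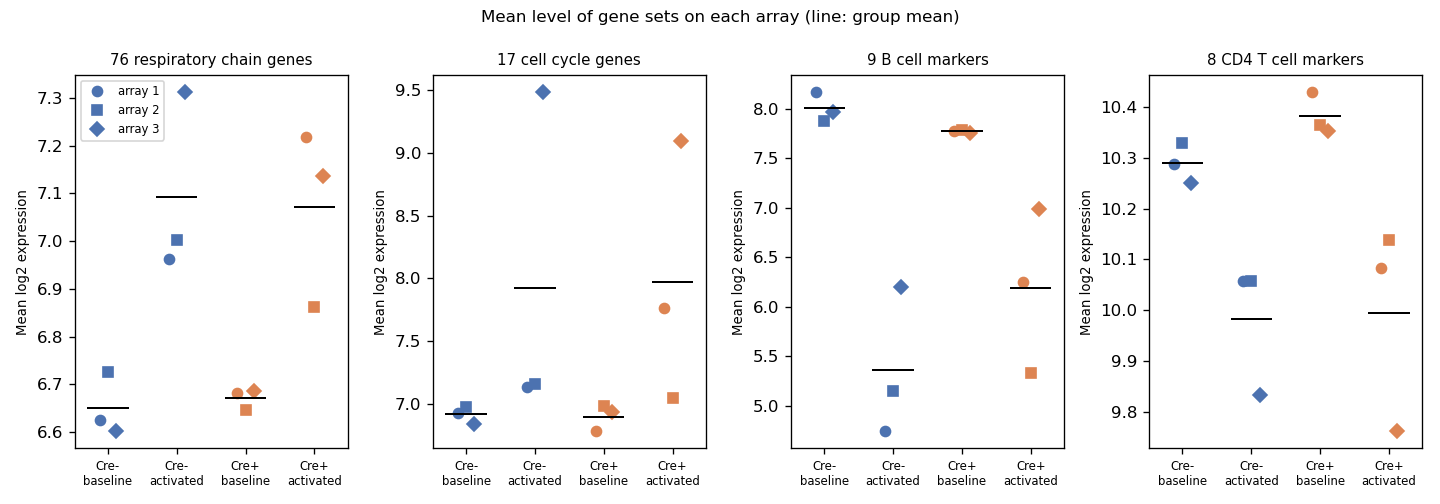
Mean log2 expression on each of the 12 arrays for the 76 respiratory chain genes, 17 cell cycle genes, 9 B cell markers and 8 CD4 T cell markers; symbols give the replicate number, colours the genotype and lines the group means, and each panel has its own vertical scale that does not start at 0. The respiratory chain means of all 6 activated arrays, 6.86 to 7.31, lie above those of all 6 baseline arrays, 6.60 to 6.73, and B cell means run the other way.

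The other mitochondrial lists showed shares of rising genes both above and below those of the chain itself. Among all genes, 9.39% rose and 9.1% fell in Cre- cells, and 10.1% rose and 10.6% fell in Cre+ cells. Of 20 measured genes of mitochondrial protein import, which bring nuclear-encoded subunits into the organelle, 16 rose in Cre- and 17 in Cre+ cells (medians 0.86 and 0.88), with Hspa9 at 1.36, Hspe1 at 1.11 and Timm17b at 0.79 in Cre- cells. Of 76 mitochondrial ribosomal protein genes, whose products translate the subunits encoded in mitochondrial DNA, 41 and 36 rose (medians 0.62 and 0.57), led by Mrpl45 at 1.38, Mrps18b at 1.26 and Mrps6 at 1.64. None of either list fell.

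Assembly factors rose in part, where 9.39% of all genes rose in Cre- and 10.1% in Cre+ cells, and 10.6% fell in Cre+ cells. Among 15 complex I factors, 6 rose in Cre- and 4 in Cre+ cells, with Ndufaf5 at 0.65, Ndufaf4 at 1.14 and Ndufaf7 at 0.59 in Cre- cells. Among 40 factors of complexes II to V, 12 and 9 rose, with Uqcc2, a complex III factor, at 1.36, Bcs1l, which inserts the Rieske protein, at 0.79 and Lrpprc, which stabilises mitochondrial mRNA, at 0.88. Cox20 and Uqcc3 fell in Cre+ cells, at -0.61 and -0.43, and were named after their values were seen, as were the other genes below that passed in Cre+ cells alone or as the fourth of a list.

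Of 13 genes for cytochrome c and coenzyme Q synthesis, 5 rose in each genotype. Among them were the coenzyme Q enzymes Coq4 at 1.10, Coq3 at 0.77 and Coq7 at 1.72 in Cre- cells. The shares over all genes were 9.39% higher and 9.1% lower in Cre- cells, and 10.1% and 10.6% in Cre+ cells. Coq8a, a kinase-like member of that pathway, fell by 0.81 in Cre- and by 0.99 in Cre+ cells. Cycs, cytochrome c itself, read 4.35, 4.57 and 4.28 at Cre- baseline, 4.37, 4.74 and 4.11 in activated Cre- cells, 3.92, 3.69 and 3.77 at Cre+ baseline and 4.55, 4.51 and 4.06 in activated Cre+ cells. Its Cre- arrays overlapped (0.01), and in Cre+ cells the activated arrays lay higher by 0.58 (adjusted p = 0.0355), from a baseline range below that of Cre- cells; its genotype difference at baseline did not pass.

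Upstream of the chain, 6 of 17 genes of the tricarboxylic acid cycle and pyruvate dehydrogenase rose in each genotype. Cs, citrate synthase, stood at 0.61, Dld at 0.73 and Idh3a at 1.09 in Cre- cells. Among all genes, 9.39% rose and 9.1% fell in Cre- cells, and 10.1% rose and 10.6% fell in Cre+ cells. Of 7 genes for other routes of electron entry, Dhodh, of pyrimidine synthesis, rose and Sqor, which oxidises sulfide, fell in Cre- cells, at 0.60 and -0.53. In Cre+ cells Etfa rose at 0.63. The shares of this list, 14.3% higher and 14.3% lower in Cre- and 14.3% higher in Cre+ cells, were near those of all genes. Of 6 redox genes, Txn2, Prdx3, Txnrd2 and Sod2 rose in both genotypes, at 0.83, 0.93, 0.46 and 0.70 in Cre- cells. Glycolysis, the other main supply of ATP, had 9 of 13 genes higher in each genotype (medians 1.02 and 0.84), with Hk2 at 3.17, Tpi1 at 2.48 and Pfkp at 1.16 in Cre- cells; the transporter gene Slc2a3 fell in Cre+ cells at -0.38.

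Of 10 nuclear regulators of respiratory genes, Myc, Hif1a, Pprc1 and Gabpb1 rose in both genotypes, against 9.39% and 10.1% of all genes. Myc read 8.20, 8.48 and 8.50 at Cre- baseline, 10.13, 10.17 and 10.66 in activated Cre- cells, 8.22, 8.25 and 8.37 at Cre+ baseline and 10.52, 9.69 and 10.57 in activated Cre+ cells, a difference of 1.93 in Cre- and 1.98 in Cre+ cells with wide gaps between the states. Pprc1, a coactivator related to PGC-1, read 7.59, 7.57 and 7.19 at Cre- baseline, 8.11, 8.23 and 8.44 in activated Cre- cells, 7.26, 7.45 and 7.29 at Cre+ baseline and 8.38, 7.96 and 8.25 in activated Cre+ cells, with differences of 0.81 and 0.87 and no overlap. Nrf1, Gabpa, Yy1, Ppargc1a and Ppargc1b did not pass in either genotype, with differences from -0.39 to 0.26. Of 10 genes of mitochondrial transcription and DNA replication, 3 rose in Cre- cells (Top1mt at 1.26, Twnk at 0.55 and Tfb2m at 1.08). In Cre+ cells Top1mt rose at 1.08 and Polg fell at -0.30, where 10.1% of all genes rose and 10.6% fell. For the difference of responses 0 of these 10 genes passed. Tfam, the mitochondrial transcription factor, differed by 0.22 and 0.06 and did not pass. Of 17 cell cycle genes, the replication helicase genes Mcm2, Mcm3, Mcm5 and Mcm6 rose in each genotype.

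**Figure D4:**
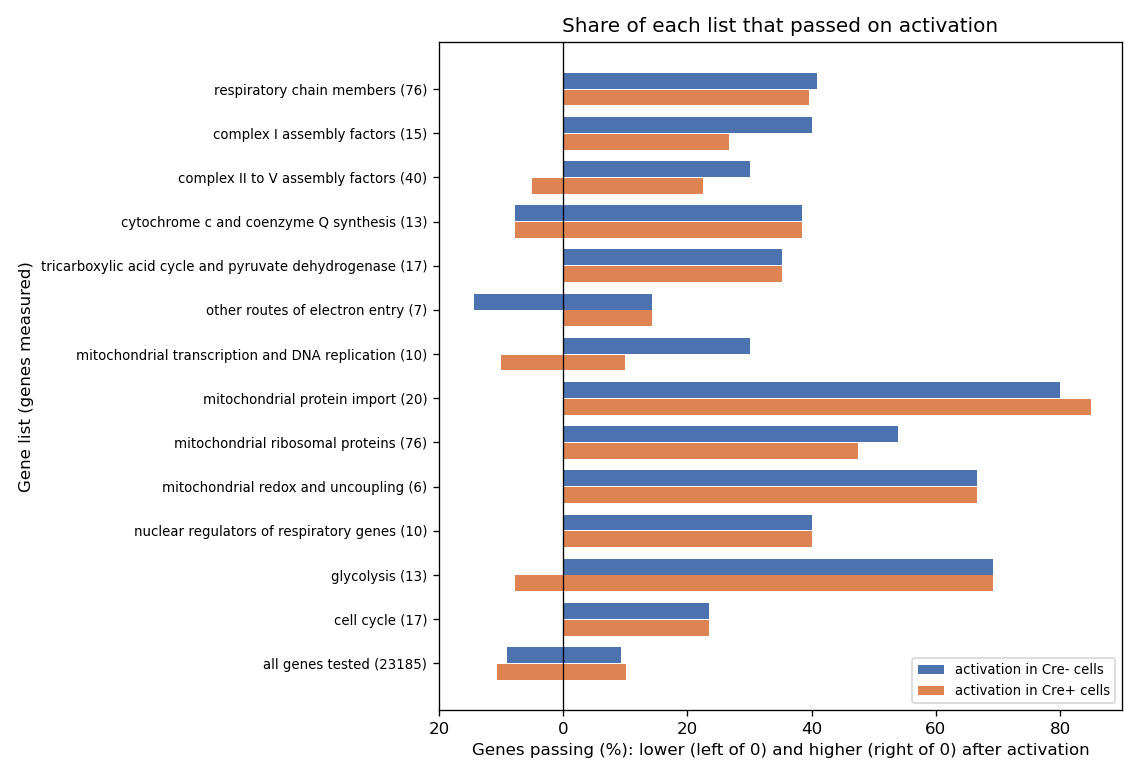
Share of each gene list that passed on activation, in percent, higher to the right of 0 and lower to the left, for Cre- cells in blue and Cre+ cells in orange; numbers in parentheses are the genes measured, and the last pair of bars is all 23185 genes tested. The respiratory chain bars reach 40.8% and 39.5% to the right and none to the left, the import bars reach farthest, and all genes stand at 9.39% and 10.1%.

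Between the genotypes, no respiratory chain gene passed in the main model in either state, where few of all genes passed. At such low shares, a count of 0 of 76 does not set the chain apart from other genes. At baseline 0 of the 76 passed in limma, against 0.552% of all genes (0.492% higher and 0.0604% lower in Cre+), and 1 had an unadjusted p under 0.05, against 6.93%. In activated cells 0 passed, against 0.729%, and 1 had an unadjusted p under 0.05, against 7.51%. For the difference of the activation responses 0 passed, against 0.00863%, and 1 was under 0.05 unadjusted, against 4.7%. With array weights 1 passed at baseline (Cox5b lower in Cre+) and 2 in activated cells (Atp5md higher and Cox6b2 lower in Cre+). These comparisons share arrays with the activation comparisons and with each other. For Cre+ minus Cre-, all 9 B cell markers had differences below 0 at baseline (median -0.18) and above 0 in activated cells (median 0.85). Of these markers 0 passed in either state, and their part in the genotype comparisons was not tested.

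The size of a difference that these arrays leave possible is given by the intervals. Medians of Cre+ minus Cre- were 0.014 at baseline and -0.028 in activated cells, and 71 of 76 genes lay within 0.25 of 0 in each. The 95% interval of a gene had a median half-width of 0.36, lay within 1 of 0, a 2-fold change either way, for 75 genes in each state, and within 0.5 for 52 at baseline and 53 after activation. For the difference of responses, with a median of -0.05, 67 genes lay within 0.25 of 0, the median half-width was 0.51, and intervals stayed within 1 of 0 for 71 genes but within 0.5 for 15. Missing the threshold does not show that levels were equal. Most genes on the arrays also differed little between the genotypes. The 5th to 95th percentile of all genes tested ran from -0.29 to 0.32 at baseline and from -0.31 to 0.35 in activated cells. For the difference of responses it ran from -0.39 to 0.40.

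Cox5b, a broad zinc-binding subunit of complex IV, had the smallest p at baseline. It read 3.48, 2.97 and 3.17 at Cre- baseline, 3.14, 3.01 and 3.30 in activated Cre- cells, 2.69, 2.49 and 2.78 at Cre+ baseline and 3.04, 3.15 and 3.06 in activated Cre+ cells. All 3 Cre+ baseline arrays were below all 3 Cre- baseline arrays, by -0.55 ± 0.14 (adjusted p = 0.170, 95% interval -0.85 to -0.25), while the activated arrays of the genotypes overlapped (-0.07 ± 0.14). Its difference of responses was 0.48 ± 0.19 (unadjusted p = 0.0298 in limma, adjusted p = 1.00). The signal of this probe set was low, and its activation call in Cre+ cells, at 0.43 ± 0.14 and adjusted p = 0.0474, was lost without any 1 of the 6 Cre+ arrays.

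Cox7a2, whose arrays are given above, was next at baseline: all 3 Cre+ arrays lay above the Cre- arrays, by 0.40 ± 0.19 (adjusted p = 0.743), and the activated arrays overlapped. At baseline 5 genes were higher on all Cre+ arrays (Cox7a2, Atp5k, Ndufa13, Ndufa6 and Ndufa7) and 2 lower (Cox5b and Atp5mpl), where 8.82% and 7.42% of all genes, 16.2% together, showed this. Neither count is a larger share of the 76 than the background.

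In activated cells the smallest p belonged to Ndufv3, an accessory subunit of complex I. It read 6.47, 6.50 and 6.34 at Cre- baseline, 6.57, 6.57 and 6.59 in activated Cre- cells, 6.42, 6.44 and 6.05 at Cre+ baseline and 6.39, 6.26 and 6.17 in activated Cre+ cells. The activated Cre+ arrays were all below the activated Cre- arrays, by -0.31 ± 0.12 (adjusted p = 0.502), and at baseline the arrays overlapped. Cox7b, a small subunit of complex IV, read 3.21, 3.31 and 3.44 at Cre- baseline, 2.99, 3.51 and 3.47 in activated Cre- cells, 3.71, 2.87 and 3.25 at Cre+ baseline and 3.89, 3.68 and 3.51 in activated Cre+ cells. Its activated Cre+ arrays were all above the Cre- arrays, at a low signal, by 0.37 ± 0.21 (adjusted p = 0.790). These were the only genes of the 76 with no overlap after activation, 1 in each direction, against 5.25% higher and 5.51% lower, 10.8% together, of all genes.

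For the difference of responses the second smallest p was that of Ndufb3, an accessory subunit of complex I. It read 2.20, 2.52 and 2.25 at Cre- baseline, 3.08, 2.89 and 3.52 in activated Cre- cells, 2.76, 2.50 and 2.30 at Cre+ baseline and 2.99, 2.94 and 2.89 in activated Cre+ cells. The rise was 0.84 ± 0.17 in Cre- (adjusted p = 0.00487) and the difference 0.42 ± 0.17 in Cre+ cells (adjusted p = 0.105), and their difference was -0.42 ± 0.24 (unadjusted p = 0.102 in limma, 95% interval -0.94 to 0.10). The signal of this probe set was low, and the Cre- activated arrays spread over a wide range for this gene, up to 3.52 on array 3.

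**Figure D5:**
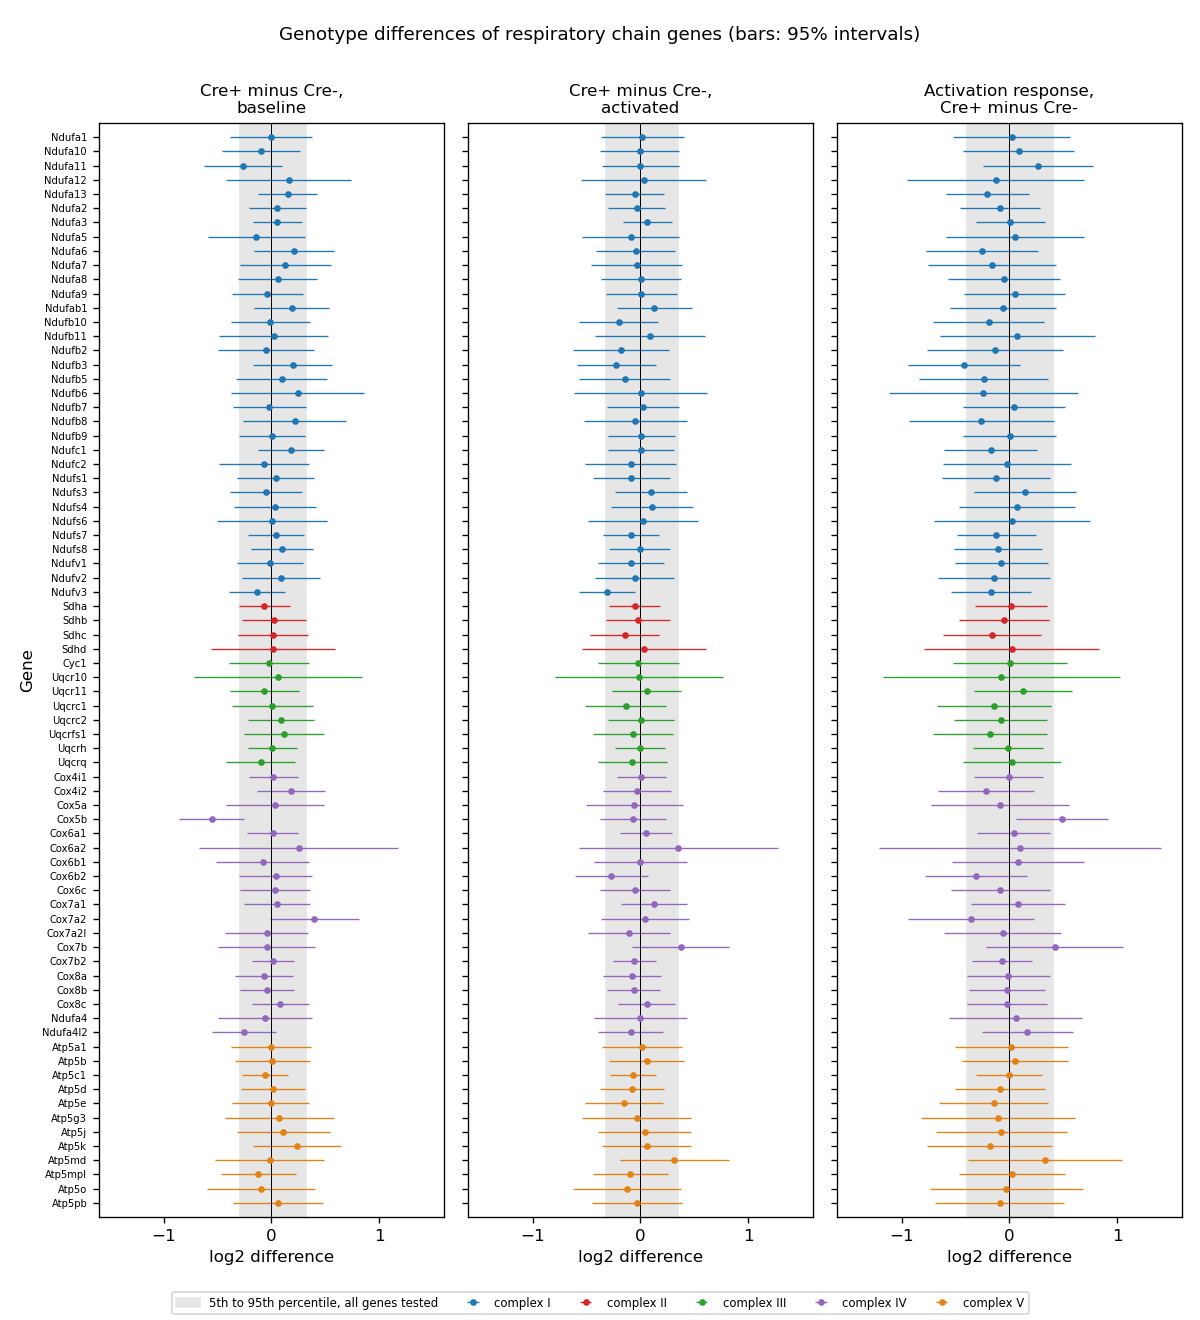
Log2 difference of Cre+ minus Cre- for each of the 76 genes at baseline, in activated cells and for the activation response; points are estimates of the limma model, bars their 95% intervals, colours the complexes, and the grey band spans the 5th to 95th percentile of the differences of all genes tested. Points gather at 0 in all 3 panels, and outside the band lie Cox5b and Cox7a2 at baseline, Cox7b in activated cells, and Cox5b, Cox7b and Ndufb3 for the response, with Cox6a2 on the edge of it in activated cells.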

How the data were processed

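CD4+ T cell RNA was measured on 12 Mouse Gene 2.0 ST arrays. The authors deposited log2 expression values from RMA (affy 1.36.1, R 2.15.1, per the submitters' processing notes), which ran from 0.54 to 13.2. The chip definition is not given in the sources used here. Of 25206 probe sets, 23185 were paired with 1 gene and tested. The 2021 others have no gene, or more than 1, in the table used. The precision is limited by 3 arrays a group.

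The deposited log2 values entered 1 limma model (version 3.58.1 in R 4.3.3) of 4 group means and no covariate, fitted on all arrays (8 residual degrees of freedom, 3.55 prior). Tests were two-sided, and p-values were adjusted by Benjamini-Hochberg over all 23185 genes in each of 5 comparisons. A gene rose or fell where the adjusted p was under 0.05. SE values are the moderated ones, and SD values are over 3 arrays. The script was tested on simulated data.

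The 76 genes, the 13 pathway lists, the 7 marker lists and the tests were chosen with earlier results of these data known. Values on every array were given for the largest changes that passed and the gene nearest 0 in each complex, the smallest p between genotypes, and tissue isoform pairs; pathway lists added up to 3 rising and 2 falling genes. Other genes were named after their values were seen. Promoter windows came from RefSeq (GRCm38.p6), matched by gene identifier.

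Alternatives were a block for the replicate number, trended and robust variances, array weights, a mean of at least 5, all probe sets, median centring, quantile normalization, fits of only the arrays compared, and leaving out both activated arrays numbered 3 or each array in turn.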

Additional observations from a re-analysis of the deposited data

How the results depend on the processing

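Of the 31 genes that passed in Cre- cells, 16 passed under every alternative run for them, 21 in all but 20 for Ndufb3, whose mean was under 5 (Atp5d, Atp5mpl, Cox5a, Cox7a2, Cyc1, Ndufa12, Ndufb2, Ndufb3, Ndufb8, Ndufb9, Ndufc1, Ndufc2, Ndufs8, Ndufv2, Sdhb and Uqcrq), and of the 30 in Cre+ cells 9 did (Atp5d, Atp5mpl, Cox5a, Cyc1, Ndufb2, Ndufb9, Ndufc2, Ndufs8 and Uqcrq). Leaving out each array in turn, between 16 and 37 genes passed in Cre- and between 9 and 42 in Cre+ cells. Array weights gave 58 in Cre+ cells, 1 between the genotypes at baseline and 2 in activated cells; the cause was not tested. Fits of only the arrays compared gave 24 and 22, and median centring 39 and 33. Whether the replicate numbers pair the samples was not settled. Deviations of same-numbered activated arrays of the 2 genotypes correlated at -0.05, 0.57 and 0.73 over all genes. For baseline arrays numbered 1, 2 and 3 the values were -0.03, 0.14 and 0.15. What the activated arrays numbered 2 and 3 share between the genotypes was not tested. With the replicate number as a block, 30 genes passed in Cre- and 25 in Cre+ cells, and 0 in the genotype comparisons and the difference of responses. With 3 arrays a group, differences between genotypes smaller than about 0.36 on the log2 scale, the median half-width of the intervals, are hard to see here. Those intervals are not adjusted for the number of genes tested. Larger differences also missed the adjusted threshold, such as Cox5b at baseline, at -0.55.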
